A study of Neurospora crassa with 22 samples.

Results

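The transcripts described here are the 221 Neurospora crassa mRNAs that carry the Ssd1-type motif (ATTCATTCCTT or AGTCATTCCTT in DNA letters), in full or with 1 mismatch, and that were counted in the GUL-1-GFP pull-downs. They were taken from the study's list of 363 motif-bearing genes, of which 2 were set aside by rule. A gene became a member when it had 30 or more counts in at least 4 of the 6 GUL-1-GFP pull-downs, and 140 listed genes fell under that rule. The same count rule was passed by 3938 of the 9757 protein-coding genes in the table, 3715 of them without a listed motif, and these 3715 are called the other mRNAs below. The rule used counts in the GUL-1-GFP pull-downs, so every comparison of those pull-downs with the wild-type is given as a description and not as a test.

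GUL-1 is the homolog of yeast Ssd1, an RNA-binding protein that keeps a set of mRNAs, many of them for cell wall proteins, from being translated where and when they are not needed. In Saccharomyces cerevisiae the Cbk1 kinase controls Ssd1, and in N. crassa the related kinase COT-1 is required for hyphal elongation. The motif was defined in 5′ UTRs of yeast mRNAs bound by Ssd1. RNA immunoprecipitation (RIP) recovers the RNAs that come down with a tagged protein, and the same procedure on a non-tagged strain shows what the beads retain without it.

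Hyphae of a GUL-1-GFP strain, in which gul-1 is deleted (hph::deltagul-1) and the fusion is expressed from the ccg-1 promoter at his-3 (Pccg1-gul-1-sgfp), were compared with a non-tagged wild-type. Both grew in Vogel's sucrose medium (Vs), either as such (standard growth conditions) or with 1e-05 M Nikkomycin Z, an inhibitor of chitin synthesis, for the last hour. Each strain and medium gave 3 pull-down libraries, the wild-type gave 3 inputs per medium, and GUL-1-GFP gave 2 inputs per medium. Nothing in the labels says that replicates came from separate cultures, so the p-values measure the spread between libraries.

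The 22 libraries held 259583 to 28372176 estimated counts, most of them on features that are not protein-coding. The protein-coding share was 4.43 to 21.6% in GUL-1-GFP pull-downs, 1.23 to 4.13% in wild-type pull-downs and 0.0227 to 1.54% in the inputs. The wild-type input of standard replicate 3 stood apart with 59 protein-coding counts, 3 of them on members, and results that rest on it are given with and without it. Levels below are CPM, counts per 1000000 of the whole library after TMM scaling (trimmed mean of M-values, which sets the bulk of features equal between libraries). Hyphal fks-1, for glucan synthase, lay at 22.4 to 155 CPM in all 12 pull-downs, and chs-1, for a chitin synthase, at 3.801 to 9.29 CPM. The study lists both mRNAs as associated with GUL-1, so pull-down levels alone do not measure the cells present. In the GUL-1-GFP inputs fks-1 lay at 0 to 25.95 CPM and chs-1 at 0 to 3.44 CPM. In the wild-type inputs other than standard replicate 3 they lay at 26.4 to 32.8 and 1.94 to 7.32 CPM. Of the markers of conidiation, con-6 and con-10 were at 0 in most pull-downs and never above 2.91 CPM, fl lay at 0.763 to 12.8 CPM, and eas, the hydrophobin gene, differed between libraries. With Nikkomycin Z eas lay at 0.174 to 0.848 CPM in GUL-1-GFP and 16.99 to 28.3 CPM in the wild-type. In the standard medium it lay at 19.5, 0.174 and 0.341 CPM in GUL-1-GFP and 61.5, 0.358 and 39.2 CPM in the wild-type. In the inputs with Nikkomycin Z eas lay at 0 in GUL-1-GFP and at 8.62 to 15.6 CPM in the wild-type. In the standard inputs it lay at 0 to 4.12 CPM in GUL-1-GFP and 0 to 36.8 CPM in the wild-type. The part of conidiating cells in the results below was not tested, and in such bulk samples fewer cells of a type and less RNA per cell cannot be told apart.

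Among themselves the pull-down libraries were not equally alike over the members. Pearson's r of log2(CPM + 0.5) across the 221 members, a description over genes that are not independent, was 0.960 to 0.985 among 5 of the GUL-1-GFP pull-downs, but 0.835 to 0.869 between these and GUL-1-GFP standard replicate 1. It was 0.926 to 0.942 among the wild-type pull-downs with Nikkomycin Z and 0.632 to 0.879 among those of the standard medium. Wild-type standard replicate 2 had 0.536 with GUL-1-GFP standard replicate 1 and 0.737 to 0.793 with the other GUL-1-GFP pull-downs. With the wild-type Nikkomycin Z pull-downs it had only 0.628 to 0.649, and with wild-type standard replicate 3 it had 0.879. Wild-type standard replicates 1 and 3 had at most 0.648 and 0.680 with GUL-1-GFP, and at least 0.795 and 0.767 with the wild-type Nikkomycin Z pull-downs. The label of the tagged strain was borne out by gul-1 (NCU01197), itself a member. Its mRNA lay at 102, 451 and 561 CPM in the standard GUL-1-GFP pull-downs and 768, 509.5 and 696 CPM with Nikkomycin Z, against 1.92 to 22.5 CPM in the 6 wild-type pull-downs. It was also high in the GUL-1-GFP inputs, 32.3 to 124 CPM against at most 7.77 CPM in the wild-type inputs. The log2FC between the pull-downs was 4.81 ± 0.77 (SE) and 7.76 ± 0.89. Expression from the ccg-1 promoter and retention by the protein therefore cannot be told apart for gul-1. Within the wild-type, gul-1 lay at 3.98 CPM (71 counts) in standard pull-down replicate 1. In replicates 2 and 3 it lay at 22.5 CPM (566 counts) and 13.2 CPM (922 counts).

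The sites of the members on which the results turn are shown as DNA, 5′ to 3′, from the study's motif list, to let the strongest and the weakest cases be compared. Capitals mark the base that departs from the motif, positions are counted from 1 at its 5′ end, and a site in lower case throughout is a complete match.
tah-3 (NCU03686): agAcattcctt
gul-1 (NCU01197): agAcattcctt
NCU09202: agAcattcctt
NCU05789: atAcattcctt
os-4 (NCU03071): atAcattcctt
NCU00811: agCcattcctt
NCU06986: agCcattcctt
NCU06509: attcTttcctt
NCU08443: attcTttcctt
NCU01697: attcattcctt
NCU10747: attcattcctt
NCU06983: agtcattcctt
NCU07583: agtcattcTtt
The tah-3, gul-1, NCU09202, NCU05789 and os-4 sites all hold the substitution T3A, NCU00811 and NCU06986 hold T3C, NCU06509 and NCU08443 hold A5T, and NCU07583 holds C9T. Where these sites lie within their transcripts was not analysed here.

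The members took a far larger part of the protein-coding counts in the GUL-1-GFP pull-downs than elsewhere. The rule chose them on counts in those same pull-downs, so the shares are a description. They include gul-1, expressed from the ccg-1 promoter, and the share of the other mRNAs is not given here. The members held 21.6, 27.4 and 28.2% of the protein-coding counts in the 3 standard GUL-1-GFP pull-downs and 31.9, 34.0 and 33.2% with Nikkomycin Z. In the wild-type pull-downs their share was 5.16, 5.61 and 4.78% and, with Nikkomycin Z, 5.57, 6.06 and 5.59%. The groups did not overlap in either medium, and the wild-type shares were close to those of the inputs, which were 4.96 to 5.98% in the wild-type and 5.75 to 6.88% in GUL-1-GFP.

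**Figure D1:**
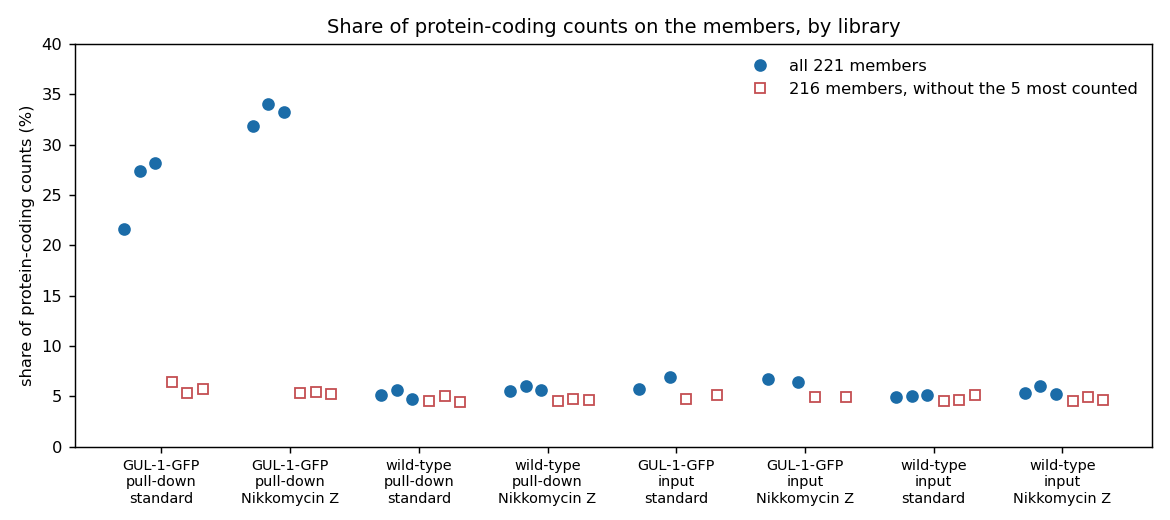
Share of the protein-coding counts (percent, y axis) that fell on the members in each library, with 1 point per library. Filled circles show all 221 members. Open squares show 216 members, without the 5 of highest mean CPM in the GUL-1-GFP pull-downs, which are also left out of the total. The filled circles reach 21.6 to 34.0% in GUL-1-GFP pull-downs and stay under 7% elsewhere, while the open squares lie between 4.42 and 6.42% in all 22 libraries.

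Most of that difference lay in 5 transcripts, tah-3, NCU00811, NCU05789, gul-1 and NCU01477. They were picked as the 5 members with the highest mean CPM over the GUL-1-GFP pull-downs, so a high share there is partly built in. Of the members' counts they carried 75.2 to 88.9% with GUL-1-GFP and 7.76 to 22.2% in the wild-type pull-downs. With these 5 set aside, the remaining 216 members held 5.21 to 6.42% of the remaining protein-coding counts with GUL-1-GFP and 4.42 to 4.98% in the wild-type pull-downs. The ranges still did not overlap, but lay close together. These shares are of counts, not of molecules, and longer transcripts give more counts per molecule.

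The transcript with the most counts was tah-3 (NCU03686), annotated as an oxidase assembly protein of the Oxa1 family, which inserts proteins into the mitochondrial inner membrane. It reached 1997, 9167 and 10120 CPM in the standard GUL-1-GFP pull-downs and 18250, 13840 and 17530 CPM with Nikkomycin Z. In the wild-type pull-downs it lay at 59.7, 39.0 and 28.7 CPM and, with Nikkomycin Z, at 109, 148 and 116 CPM. On the TMM scale standard replicate 1 was the lowest of the GUL-1-GFP libraries, yet above every wild-type library. Its TMM factor, by which the library size is multiplied, was 5.37, against 0.849 and 2.56 for replicates 2 and 3. The GUL-1-GFP inputs, at 14.7 to 73.0 CPM, were within the range of the wild-type inputs other than standard replicate 3. The log2FC of GUL-1-GFP over wild-type was 7.38 ± 0.90 (SE) under standard growth conditions and 7.05 ± 0.89 with Nikkomycin Z, n = 3 per group.

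NCU00811, a hypothetical protein, followed with 2804, 1655 and 1826 CPM in the standard GUL-1-GFP pull-downs against 12.9, 33.1 and 7.94 CPM in the wild-type. With Nikkomycin Z the values were 3486, 1533 and 2169 CPM against 25.1, 31.2 and 19.2 CPM. GUL-1-GFP was above the wild-type in every library of both media, with a log2FC of 6.86 ± 0.76 and 6.57 ± 0.75. Its inputs held 5.80 to 28.5 CPM in GUL-1-GFP, so the pull-down level was not matched by the input of the same strain. Per kilobase of annotated gene span, tah-3 averaged 2559 CPM, NCU00811 1059 CPM and gul-1 94.5 CPM over the 6 GUL-1-GFP pull-downs.

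The secreted glucosidase NCU05789 lay at 1096, 459 and 480.0 CPM in the standard GUL-1-GFP pull-downs against 19.1, 7.17 and 4.36 CPM in the wild-type, a log2FC of 6.06 ± 0.79. With Nikkomycin Z the log2FC was 4.08 ± 0.71, and the wild-type pull-downs were higher, at 34.3, 41.1 and 38.1 CPM, than in the standard medium. The hypothetical protein NCU06509 had log2FC values of 7.07 ± 0.81 and 7.16 ± 0.81, with 305 to 592 CPM in GUL-1-GFP and 1.69 to 5.38 CPM in the wild-type. NCU01477, also hypothetical, had log2FC values of 5.24 ± 0.68 and 6.16 ± 0.71, and NCU08090 had 5.98 ± 0.82 and 5.71 ± 0.81. None of the 3 hypothetical proteins overlapped between strains in any pull-down, and their inputs stayed at or below 10.3 CPM.

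**Figure D2:**
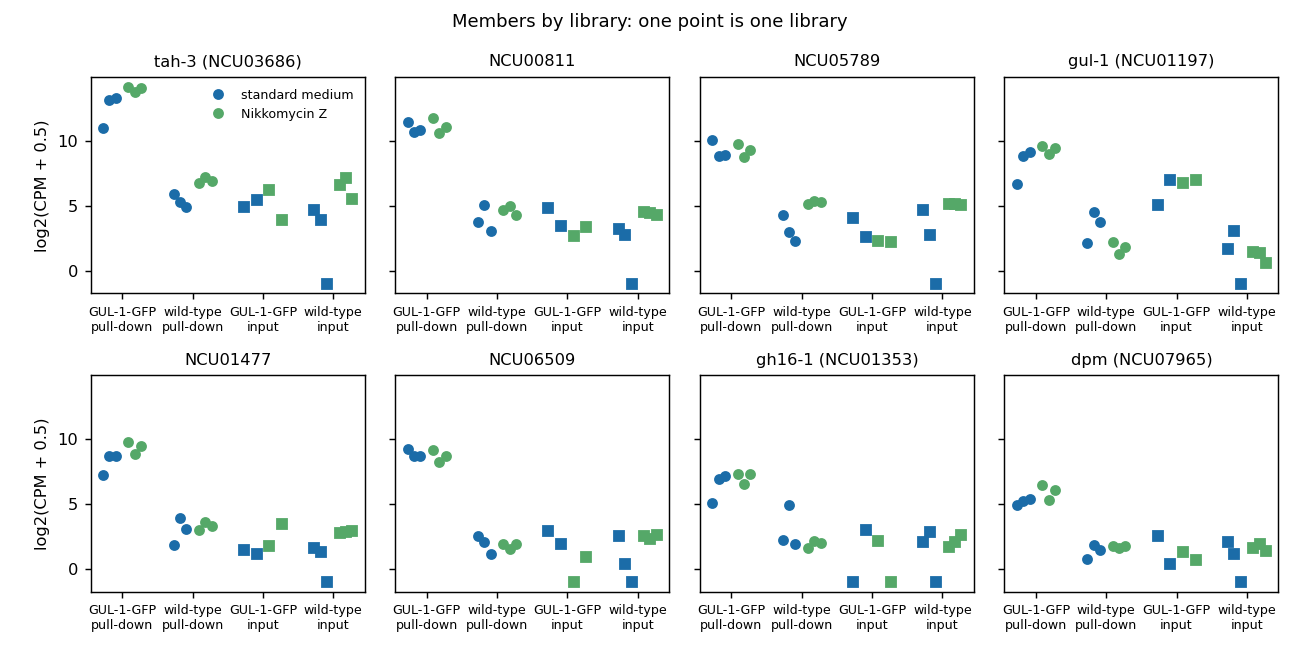
Level of 8 members, as log2(CPM + 0.5) on the y axis, in the pull-downs (circles) and inputs (squares) of GUL-1-GFP and wild-type, in the standard medium (blue) and with Nikkomycin Z (green), with 1 point per library. GUL-1-GFP pull-downs lie above all wild-type pull-downs for each of the 8, while the GUL-1-GFP inputs lie near the wild-type inputs for all but gul-1, and the point at the bottom of the wild-type input column is standard replicate 3, the library with 59 protein-coding counts.

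Over all members the shift was smaller. The median log2FC of GUL-1-GFP over wild-type pull-down was 0.38 in the standard medium, with quartiles of -0.09 and 1.17, and 0.89 with Nikkomycin Z, with quartiles of 0.08 and 1.83. The other mRNAs had medians of 0.03 and 0.36, and all 7114 features tested had medians of -0.07 and -0.13. The members thus lay 0.35 above the other mRNAs under standard growth conditions and 0.53 with Nikkomycin Z. The SD of that difference over the 3 GUL-1-GFP libraries was 0.05 and 0.06. It was taken against the wild-type mean and leaves out the spread of the wild-type libraries. Scaled by total counts, all features moved up, to medians of 0.89 and 0.72, so each log2FC is relative to the TMM scale.

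By edgeR's quasi-likelihood test at a Benjamini-Hochberg adjusted p under 0.05, 28 members were higher in GUL-1-GFP in the standard medium and 0 were lower. Of all features tested 2.59% were called higher, and of the other mRNAs 4.15% were. With Nikkomycin Z 45 members were called higher, beside 7.11% of all features and 11.95% of the other mRNAs, and 2 were called lower, beside 5.31% of all features. Both media shared 24 of the called members, 4 were called in the standard medium alone, 21 with Nikkomycin Z alone, and 172 in neither. Of all features 2.21% were called in both media, and of the other mRNAs 3.55%. With a log2FC over 2 asked as well, 26 members were called higher in the standard medium, beside 2.52% of all features, and 41 with Nikkomycin Z, beside 6.04%. Because the members were chosen on GUL-1-GFP counts, nothing is read from these counts. Leaving out wild-type standard pull-down replicate 3 took 28 to 13, and leaving out wild-type Nikkomycin Z pull-down replicate 3 took 45 to 28.

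In 46 members every one of the 6 GUL-1-GFP pull-downs was above every one of the 6 wild-type pull-downs, 20.8% of the members beside 5.75% of all features tested and 9.53% of the other mRNAs. The opposite order was found in 0 members, beside 1.17% of all features. Within the standard medium 63 members separated in this way, beside 9.42% of all features, and 1 lay below the wild-type, beside 5.54%, and with Nikkomycin Z 121, beside 25.7%. The wide separation with Nikkomycin Z was thus common to many features. With Nikkomycin Z 22 members lay below the wild-type in all libraries, beside 27% of all features.

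**Figure D3:**
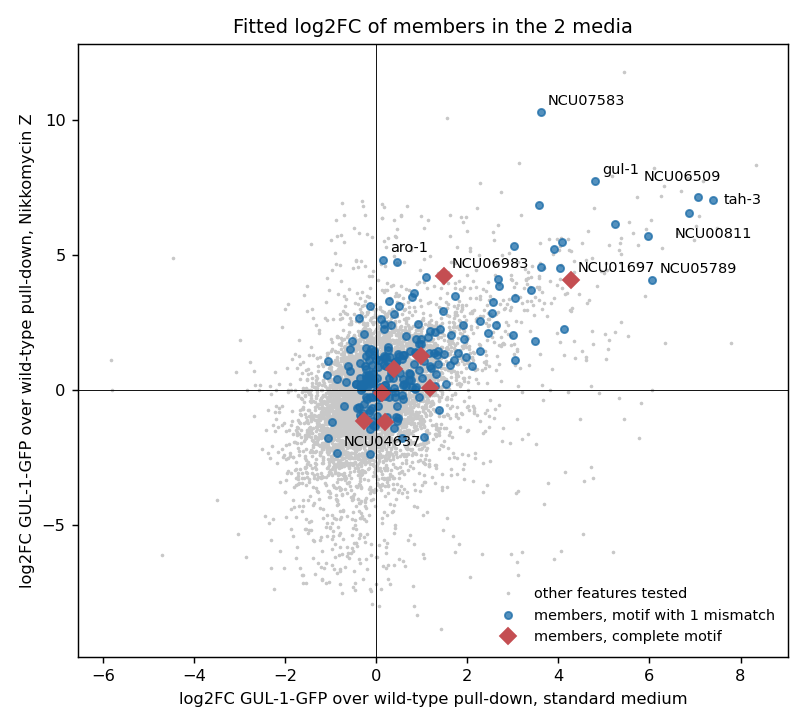
Fitted log2FC of GUL-1-GFP over wild-type pull-down in the standard medium (x axis) and with Nikkomycin Z (y axis), for members with 1 mismatch (blue circles), members with the complete motif (red diamonds) and the other features tested (grey). Most members sit near the origin with the grey cloud, a string of them reaches the upper right, with tah-3 at 7.38 and 7.05 and gul-1 at 4.81 and 7.76, and aro-1 stands high with Nikkomycin Z alone. The point of NCU07583 rests on wild-type libraries at 0.

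Set beside other mRNAs of like abundance, the members had the higher median in every bin. Both sets were split at the quartiles of the members' mean log2 CPM over the GUL-1-GFP pull-downs. The bins matched abundance only roughly. The median of that mean was 4.005 for members against 3.64 for the other mRNAs in the highest bin. It was 2.36 against 2.12 in the third bin and 0.499 against 0.537 in the lowest. In the highest of the 4 bins the 56 members had a median log2FC of 1.62 in the standard medium against 0.71 for 654 other mRNAs, and 1.94 against 1.44 with Nikkomycin Z. In the lowest bin the medians were 0.03 against -0.18 and 0.18 against -0.14. The members' median was the higher by 0.40 and 0.36 on average over the 4 bins, and by 0.22, 0.33, 0.12 and 0.91 from the lowest to the highest bin without and 0.32, 0.40, 0.22 and 0.51 with Nikkomycin Z, while their interquartile ranges overlapped with those of the other mRNAs in each bin. Called higher in the top bin were 24 members (42.9%) against 19.3% of the other mRNAs in the standard medium, and 51.8 against 40.8% with Nikkomycin Z. Abundance in the GUL-1-GFP pull-downs is itself part of the log2FC, and with bins set by the mean over all 12 pull-downs the differences were 0.23, 0.43, 0.19 and 0.64 without and 0.37, 0.76, 0.21 and 0.29 with Nikkomycin Z. The top bin thus had the largest difference with Nikkomycin Z under the first split only.

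**Figure D4:**
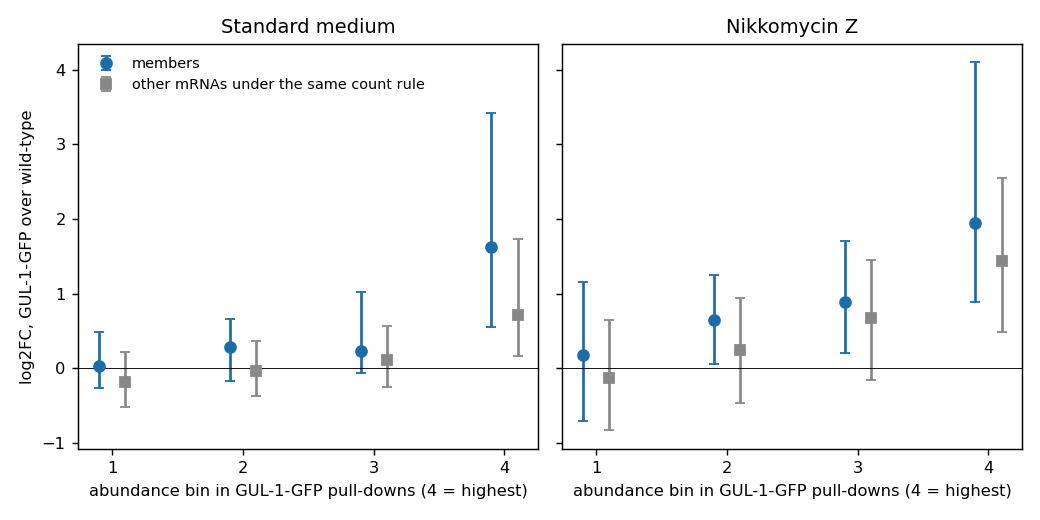
Median log2FC of GUL-1-GFP over wild-type pull-down (y axis, bars from the lower to the upper quartile) in 4 bins of rising abundance in the GUL-1-GFP pull-downs (x axis), for members (blue) and other mRNAs under the same count rule (grey). The members' median is above the grey one in each bin, from 0.03 against -0.18 in the lowest to 1.62 against 0.71 in the highest bin of the standard medium, and the bars overlap throughout.

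A complete motif was found in 8 members, and they did not behave alike. The highest log2FC of the 8 in the standard medium was that of the hypothetical protein NCU01697. It lay at 6.28, 7.54 and 8.31 CPM in the standard GUL-1-GFP pull-downs against 0, 0.955 and 0.187 CPM in the wild-type, and at 12.04, 7.12 and 8.52 CPM against 1.01, 0 and 0.531 CPM with Nikkomycin Z. All GUL-1-GFP values were above all wild-type values, and the log2FC was 4.27 ± 1.03 and 4.10 ± 1.01. NCU06983, also hypothetical, had 91, 39 and 81 counts against 0, 20 and 50 in the standard medium, without overlap in CPM, but its log2FC of 1.49 ± 0.98 was within 2 SE of 0. With Nikkomycin Z it had 99, 18 and 86 counts against 5, 0 and 0.

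The other complete sites were in mRNAs at 0.290 to 7.12 CPM in the GUL-1-GFP pull-downs. Set-1, for a histone methyltransferase, lay at 0.975 to 1.83 CPM in GUL-1-GFP and 0.931 to 1.94 CPM in the wild-type, with a log2FC of 0.12 ± 0.69 and -0.10 ± 0.69. NCU03357, for a ubiquitin-conjugating enzyme, had a log2FC of 0.39 ± 0.73 and 0.80 ± 0.73, and the hypothetical protein NCU03645 had 0.98 ± 0.61 and 1.25 ± 0.61. Ccg-8, a clock-controlled gene, had 1.17 ± 0.59 and 0.08 ± 0.58, γ-tubulin (tbg) 0.19 ± 0.78 and -1.16 ± 0.79, and NCU10747 -0.28 ± 0.65 and -1.14 ± 0.65. For tbg and NCU10747 the GUL-1-GFP libraries with Nikkomycin Z were all below the wild-type ones. As a set the complete-motif members had a median log2FC of 0.69 under standard growth conditions and 0.44 with Nikkomycin Z, on 8 genes, against 0.38 and 0.89 for the 213 members with 1 mismatch.

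Members with the very same site could differ widely. Over the 34 sites held by 3 or more single-site members, the span of log2FC in the standard medium was 0.10 to 7.49 with a median of 2.34, beside 8.46 over all members. A span grows with the number of genes, and each site had at most 12 such members. Whether members that share a site are more alike than others was not tested. The site agAcattcctt was the single site of 7 members. In the standard medium their log2FC ran from -0.10 to 7.38, with a median of 0.79, and 2 of them, tah-3 and gul-1, were called higher. NCU09202, for a protein kinase of the dsk1 type, bears the same letters and lay at 6.15 to 8.57 CPM in GUL-1-GFP and 5.01 to 8.56 CPM in the wild-type, with a log2FC of 0.20 ± 0.45 and 0.01 ± 0.45. The site agCcattcctt was shared by NCU00811 and by NCU06986, a DUF221 membrane protein, which had log2FC values of -1.05 ± 0.95 and -1.76 ± 0.97. Of the 34 sites, 15 had both members called higher and members not called in the standard medium, and the commonest, attcattcAtt with 12 members, ran from -0.08 to 3.62.

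The 238 sites of the members took 60 different forms. The mismatch fell most often at position 9, in 55 sites, and at position 5, in 38, and least often at position 4, in 3. Among single-site members with a mismatch the median log2FC was highest for position 3, held by 20 members. It was 0.77 under standard growth conditions and 1.36 with Nikkomycin Z, and 6 were called higher in each medium. These 20 include tah-3, NCU00811, NCU05789 and gul-1, the last expressed from the ccg-1 promoter. For the 40 members with a mismatch at position 9 the median was 0.51 and 1.09, with 9 and 14 called. For the 16 with a mismatch at position 7 it was -0.02 and 0.14, with 1 and 1. Of all features 2.59% and 7.11% were called higher, and of all members 12.7% and 20.4%. With G at position 2 the medians were 0.44 and 0.89 over 91 members and with T they were 0.31 and 0.80 over 108. More than a single site was present in 15 members, with medians of 0.17 and 1.15. The annotated gene span was longer in members, with a median of 3256 bp, than in the other mRNAs, with 2843 bp, or in the motif genes under the count rule, with 2210 bp.

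Cell wall and glycosylation genes were the members with the highest median. Of 10 such members 4 were called higher under standard growth conditions and 5 with Nikkomycin Z, 0 lower, with medians of 2.80 and 3.67 against 0.38 and 0.89 for all members, and gul-1 is 1 of the 10. Here and for the groups that follow, the shares of all features called higher were 2.59% and 7.11%, and 5.75% did not overlap in any pull-down. Gh16-1, for a mixed-linked glucanase that cuts wall β-glucans, lay at 33.3, 123 and 146 CPM in the standard GUL-1-GFP pull-downs against 4.09, 29.7 and 3.36 CPM. With Nikkomycin Z it lay at 159, 95.5 and 156 CPM against 2.63, 4.02 and 3.58 CPM. Wild-type standard replicate 2 was the outlying control, close to the lowest GUL-1-GFP value, and the log2FC was 3.03 ± 0.92 without and 5.33 ± 1.02 with Nikkomycin Z, a difference that was not called in the interaction test.

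NCU03045, annotated as a cellular morphogenesis protein, lay at 39.3, 89.2 and 96.4 CPM against 3.59, 9.04 and 5.67 CPM in the standard medium, a log2FC of 3.62 ± 0.59, and at 4.58 ± 0.62 with Nikkomycin Z. Dpm, for the dolichol-phosphate mannosyltransferase that supplies mannose for protein glycosylation and GPI anchors, had a log2FC of 4.04 ± 0.61 and 4.54 ± 0.62. Both were higher in all 6 GUL-1-GFP pull-downs than in any wild-type pull-down, as were 7 of the 10 cell wall members. At the other end ham-7, for a wall sensor of the MAK-1 pathway, was the lowest of the group with Nikkomycin Z, at -1.44 ± 0.89.

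Signalling and transcription members had lower medians. Of 10 signalling members 1 was called higher in each medium, nox-2, for an NADPH oxidase that makes superoxide. Nox-2 lay at 4.51, 7.31 and 12.2 CPM against 1.57, 2.79 and 1.98 CPM in the standard medium, with no overlap, and its log2FC was 1.92 ± 0.50 and 2.43 ± 0.51. Os-4, the MAP kinase kinase kinase of the osmotic pathway, had 1.17 ± 0.67 and 1.37 ± 0.67 and did not overlap either.

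Of 14 transcription and chromatin members 2 were called higher in each medium, with medians of 0.24 and 0.32. Pp-1, for the Ste12-type factor under the MAK-2 pathway, lay at 27.3, 18.6 and 19.8 CPM against 2.24, 5.73 and 3.36 CPM, with a log2FC of 2.53 ± 0.61 and 2.87 ± 0.62. Msn-1, for a zinc finger factor of the stress response type, lay at 75.4, 52.0 and 71.6 CPM against 9.47, 18.4 and 13.3 CPM, with 2.27 ± 0.53 and 2.58 ± 0.53. Neither overlapped with the wild-type in any medium. Nit-2, the GATA factor of nitrogen regulation, had 0.17 ± 0.52 and 1.25 ± 0.53.

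Of 16 members for vesicle traffic, nuclear transport and the cytoskeleton 2 were called higher under standard growth conditions and 3 with Nikkomycin Z, where 1 was called lower. The septin gene NCU08297 lay at 22.4, 50.4 and 63.6 CPM against 4.26, 11.3 and 5.47 CPM, with log2FC 2.69 ± 0.57 and 3.88 ± 0.60, and the SH3 domain gene NCU06628 had 2.45 ± 0.55 and 2.11 ± 0.55. The member called lower was NCU04637, the BAR adaptor RVS167 that shapes membranes in endocytosis. With Nikkomycin Z it lay at 1.05, 1.10 and 1.22 CPM in GUL-1-GFP and at 7.30, 6.63 and 3.22 CPM in the wild-type, a log2FC of -2.34 ± 0.75, while in the standard medium the strains overlapped, at -0.86 ± 0.72. The oxysterol-binding protein gene NCU04610 had 0.17 ± 0.61 and 2.46 ± 0.64.

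Of 6 mitochondrial members 1, tah-3, was called higher under standard growth conditions and 4 with Nikkomycin Z. The 2-methylisocitrate lyase gene NCU02481 of the propionate pathway had log2FC 1.46 ± 0.57 and 2.92 ± 0.61, and nde-2, for an alternative NADH dehydrogenase, 0.83 ± 0.88 and 3.62 ± 1.005, whereas sod-2, for the mitochondrial superoxide dismutase, had -0.13 ± 0.62 and -0.27 ± 0.62. Of 10 transport members 1 was called under standard growth conditions and 2 with Nikkomycin Z. Of 9 lipid and peroxisome members 0 and 1 were called, and of 10 ubiquitin and folding members 0 and 2. In the first of these groups propionate-2 (NCU07932) had 1.63 ± 0.53 and 2.06 ± 0.54, and in the other the RING finger gene NCU07516 had 1.40 ± 0.56 and 2.27 ± 0.57. Among 5 members for RNA processing and ribosome assembly 0 were called in either medium, the median being -0.87 under standard growth conditions and 0.88 with Nikkomycin Z. Of the 87 hypothetical proteins in no list 17 were called under standard growth conditions and 19 with Nikkomycin Z, and 24 did not overlap between strains in any pull-down.

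The log2FC was higher with Nikkomycin Z than without in 7 of 9 translation members and 9 of 9 for amino acid, nucleotide and cofactor metabolism. So it was in 57.9% of all members, 57.2% of the other mRNAs and 45.9% of all features. The remaining lists ran from 4 of 10 transport members to 9 of 10 ubiquitin and folding members. The levels of the members named below differed widely among the libraries of a group. Of 9 translation members 0 were called under standard growth conditions and 3 with Nikkomycin Z, and of 9 in amino acid, nucleotide and cofactor metabolism 0 and 2, with group medians going from 0.10 to 1.298 and from 0.15 to 1.47. Aro-1, for the pentafunctional enzyme of the shikimate pathway, lay at 0.306, 6.96 and 12.5 CPM in the standard GUL-1-GFP pull-downs and at 0.336, 11.7 and 5.64 CPM in the wild-type. With Nikkomycin Z it lay at 8.81, 11.2 and 9.77 CPM against 0.503, 0 and 0.465 CPM. Replicate 1 was thus the low library of both strains in the standard medium, and replicates 2 and 3 overlapped between the strains. The log2FC of aro-1 was 0.15 ± 1.06 without Nikkomycin Z and 4.84 ± 1.29 with it.

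Cot-3, for translation elongation factor 2, followed the same order. It lay at 4.81, 64.7 and 80.4 CPM in GUL-1-GFP and 13.7, 86.1 and 40.1 CPM in the wild-type in the standard medium, and at 71.7 to 75.3 CPM against 11.4 to 12.5 CPM with Nikkomycin Z. Its log2FC was 0.10 ± 0.71 and 2.64 ± 0.75. The histidinol-phosphate aminotransferase gene NCU06360 had 0.45 ± 0.79 and 4.74 ± 0.95, the eIF3 subunit gene NCU00040 0.78 ± 0.70 and 3.45 ± 0.77, the valyl-tRNA synthetase gene cyt-20 -0.26 ± 0.64 and 2.08 ± 0.68, and the nitrate transporter gene nit-10 1.08 ± 0.96 and 4.19 ± 1.09. In the inputs nit-10 lay at 0.411 and 9.71 CPM in wild-type standard replicates 1 and 2 and at 0.335 to 1.73 CPM with Nikkomycin Z. The cause of these differences was not tested. The conidiation gene eas, given above, was at its lowest in the same 5 GUL-1-GFP pull-downs and in wild-type standard replicate 2, and high in GUL-1-GFP standard replicate 1 and the other 5 wild-type pull-downs. Its part in the log2FC values was not tested, and the labels name no batch. No member passed the interaction test, as given below.

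**Figure D5:**
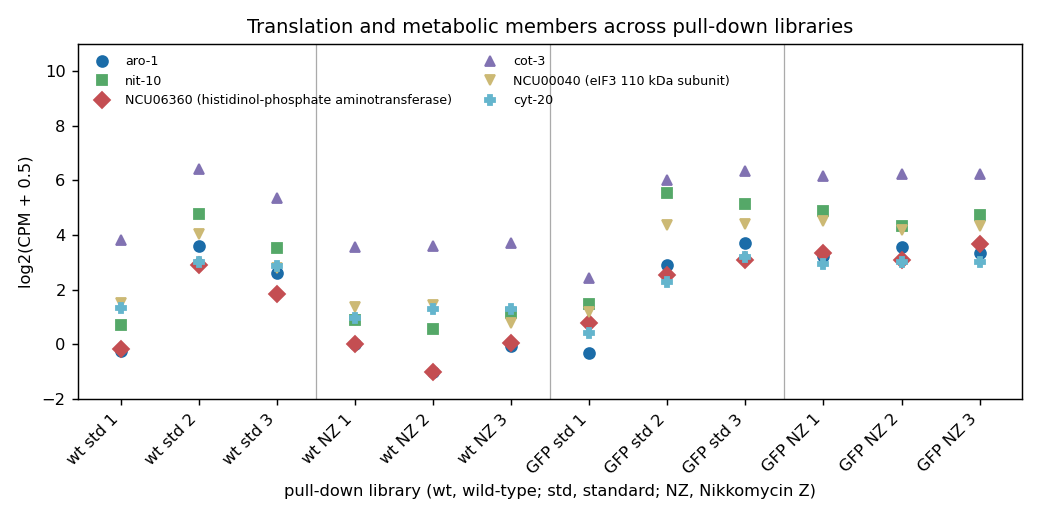
Level of 6 members for translation, amino acid synthesis and nitrate uptake, as log2(CPM + 0.5) on the y axis, in each of the 12 pull-down libraries (x axis). In both strains standard replicate 1 is the low library of its group, and the wild-type libraries with Nikkomycin Z are as low, for example cot-3 at 11.4 to 12.5 CPM against 71.7 to 75.3 CPM in GUL-1-GFP.

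For a single member the wild-type pull-downs with Nikkomycin Z were all at 0. NCU07583, a hypothetical protein, had 324, 124 and 394 counts in GUL-1-GFP with Nikkomycin Z and 0 in each of the 3 wild-type libraries, which puts it at least 33.4-fold higher, taking 3 counts per library as the most that 0 allows. In the standard medium it had 58, 61 and 161 counts against 0, 9 and 11, a log2FC of 3.62 ± 0.84. The hypothetical protein NCU00265 was similar, at 9.41, 38.2 and 12.3 CPM against 0.841, 3.30 and 0.904 CPM, and had a log2FC of 3.57 ± 0.71 and 6.85 ± 0.86.

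The lowest members in the standard medium were NCU06294 at -1.08 ± 0.71, NCU06986 at -1.05 ± 0.95, rRNA maturation-8 (NCU01503) at -1.05 ± 0.90, the polyadenylation factor fip-1 (NCU07654) at -0.97 ± 0.81 and Utp14 (NCU07058), of the small subunit processome, at -0.87 ± 0.85. None of these was beyond 2 SE of 0. With Nikkomycin Z the lowest were the aspartyl proteinase NCU04269 at -2.36 ± 0.72, NCU04637, NCU06986 at -1.76 ± 0.97, and the hypothetical proteins NCU04675 at -1.79 ± 0.89 and NCU02526 at -1.73 ± 0.85. NCU04269 lay at 0.815, 0.721 and 0.729 CPM in GUL-1-GFP and at 4.78, 2.095 and 4.78 CPM in the wild-type, and it and NCU04637 were the 2 members called lower. In the standard medium neither was outside the spread of the libraries.

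At the edge of the rule the members were thinly counted. Just inside it, with 30 to 31 counts in the fourth highest GUL-1-GFP pull-down, were nst-3, for a SIR2-type deacetylase, the hydrolase gene NCU01302 and tbg, whose log2FC lay between -1.16 and 0.73 in both media. Just outside, with 29, 28 and 27 counts, were NCU09480, the kinase gene stk-32 and NCU03265. Of the 140 motif genes under the rule 93 were tested, and their median log2FC was -0.05 under standard growth conditions and -0.36 with Nikkomycin Z.

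The wild-type libraries took no part in choosing the members, so the comparisons within the wild-type are given as tests. In the wild-type pull-down over input, which asks what the beads retain without the tag, 0 members passed in either medium by edgeR. At an unadjusted p under 0.05, 40 (18.1%) were higher in the standard medium and 0 lower, beside 15.4% of the other mRNAs and 12.8% of all features higher. With Nikkomycin Z 7 (3.17%) were higher and 2 lower, beside 2.85% of all features higher. The smallest adjusted p by edgeR was 0.0592 and 0.581, DESeq2 called 5 higher under standard growth conditions and 0 with Nikkomycin Z, and 0.45% and 0% of all features were called higher. The members' median log2FC was 0.68 and 0.14, beside 0.61 and 0.08 for all features. Without wild-type input standard replicate 3 the count stayed at 0 and the standard medians were 0.61 for the members and 0.54 for all features, whereas without wild-type input standard replicate 1 it was 15. For tah-3, highest in the GUL-1-GFP pull-downs, the wild-type pull-down over input was 1.42 (1.12 without that library) and 0.41 on the log2 scale.

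Few members were called for Nikkomycin Z in the wild-type input, which does not show that few changed. At an unadjusted p under 0.05 by edgeR, 41 (18.6%) were higher and 11 (4.98%) lower. Of the other mRNAs 16.4% and 3.77% were, and of all features 13.9% and 3.3%. By edgeR 4 were higher and 1 lower at an adjusted p under 0.05, beside 0.928% and 0.0703% of all features, and the members' median log2FC of 0.56 was close to 0.55 for all features, and without wild-type input standard replicate 3 they were 0.48 and 0.49. NCU00754, for a multidrug resistance protein of the membrane transporters, lay at 74.2, 60.7 and 59.1 CPM with Nikkomycin Z against 0.411, 4.47 and 0 CPM, the 0 being in the library of 59 protein-coding counts. Its log2FC was 4.91 ± 1.11 (adjusted p = 0.0328, edgeR), and the treated and untreated libraries did not overlap. In the GUL-1-GFP inputs the same mRNA was at 6.28 and 4.36 CPM with Nikkomycin Z and 5.07 and 7.08 CPM without, a difference between strains that was not tested.

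The urea transporter gene NCU01977 rose by 2.65 ± 0.59 (adjusted p = 0.0328, edgeR), from 4.52 and 4.86 CPM in replicates 1 and 2 to 23.2, 30.8 and 27.1 CPM. The hypothetical proteins NCU07388 and NCU07881 rose by 3.16 ± 0.62 (adjusted p = 0.0209, edgeR) and 2.26 ± 0.57 (adjusted p = 0.0465, edgeR). NCU08443 was called lower (adjusted p = 0.0308, edgeR) on 16, 11 and 0 counts without and 4, 0 and 0 counts with Nikkomycin Z. Without wild-type input standard replicate 3 the log2FC was 4.83 for NCU00754, 2.53 for NCU01977, 3.11 for NCU07388 and 2.15 for NCU07881, and NCU00754 and NCU07881 were no longer called (adjusted p = 0.0657 for both, edgeR). Over the alternatives the adjusted p ran from 0.000172 to 0.074 for NCU00754, from 0.000113 to 0.232 for NCU01977, from 0.000172 to 0.211 for NCU07388, from 0.00153 to 0.299 for NCU07881 and from 0.00672 to 0.225 for NCU08443. Leaving out wild-type input standard replicate 3, 2 or 1 gave 2, 0 and 36 members called higher and 1, 0 and 5 called lower, so these calls rest on single inputs.

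In the pull-downs the effect of Nikkomycin Z did not reach the threshold for any member by edgeR. In the wild-type pull-down 0 members passed, beside 0.0281% of all features called higher and 0.0141% called lower, with 10 higher and 24 lower (10.9%) at an unadjusted p under 0.05, beside 6.23% of all features lower, and DESeq2 called 4 higher and 2 lower. The smallest adjusted p by edgeR was 0.139. In the GUL-1-GFP pull-down 0 members passed, beside 0% of all features in each direction, with 2 higher and 1 lower at an unadjusted p under 0.05 and 0 by DESeq2. The same 6 libraries chose the members, though by a rule blind to medium, so these values are a description. The median was 0.24 for the members, 0.12 for the other mRNAs and -0.09 for all features. For tah-3 the difference was 1.22 ± 0.69 on the log2 scale, and for NCU00811 0.19 ± 0.59.

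The interaction, the difference between the media in the GUL-1-GFP over wild-type log2FC, was not called for any member by edgeR, beside 0% of all features called higher and 0.0281% lower, and DESeq2 called 0. At an unadjusted p under 0.05, 18 members (8.14%) were higher and 6 (2.71%) lower, beside 5.95% and 3.36% of the other mRNAs and 3.92% and 6.07% of all features. The interaction also uses the libraries that chose the members and is given as a description. The median interaction was 0.33 on the log2 scale for the members, 0.20 for the other mRNAs under the same count rule and -0.13 for all features.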

How the data were processed

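The table held 10592 features in 22 libraries of hyphal RNA, as estimated counts per gene. The authors deposited these estimated counts without normalization. The submitters' processing notes name CASAVA 1.8.2, HISAT2 2.1.0 and StringTie 1.3.3b, whereas the study's methods describe another aligner and a direct tally of single-end reads. Which of them made the table, and the genome build, are not given in the sources used here. Values of 1 are rarer (862) than values of 5 (5340), so low values are estimates rather than plain reads, and limits from 0 cover counting error only. The kit was strand-specific, but the counting is not stated to use strand. In each strain and medium the fraction label set pull-down or input. For 2 GUL-1-GFP inputs the title reads as a pull-down, and the fraction label was followed. A further GUL-1-GFP input per medium was not analysed here.

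Counts, already whole numbers, were fitted in 1 edgeR 4.0.16 model of 8 groups (R 4.3.3, TMM, filterByExpr with a minimum count of 10, quasi-likelihood test, Benjamini-Hochberg over 7114 features), and 8 contrasts were taken. The ± values are SE of the log2FC. All 221 members passed the filter. Abundance bins and figures used log2(CPM + 0.5). Symbols, biotypes and gene spans came from the RefSeq NC12 table. The model was also run on simulated counts, drawn from a common profile with changes planted in the standard GUL-1-GFP pull-downs. That setting lacks the other differences between groups and replicates seen here, so nothing above rests on it. Alternatives were DESeq2 1.42.0, total counts, no filter, protein-coding genes only, the replicate block, and each library left out. Named genes were gul-1, complete-motif members, the 5 highest and 5 lowest per medium, members called in the other contrasts, those next to the threshold and up to 4 per gene list by level. Ham-7, dpm, NCU01477 and the pairs of like sites were chosen after their values were seen. Members and lists were chosen with earlier results of these data known.

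Same-numbered libraries deviated together in the wild-type pull-down and input with Nikkomycin Z, with r of 0.115 to 0.152 in the 3 pairs across features, and this pairing is taken from the data, not the labels. In the other contrasts at least 1 pair had r under 0.1, though other pairs could be higher. Same-numbered standard pull-downs of GUL-1-GFP and wild-type had r of 0.640, 0.521 and 0.0738 for replicates 1, 2 and 3. GUL-1-GFP replicate 3 with wild-type replicate 2 had 0.524. For the wild-type pull-down and input of the standard medium the same-numbered values were 0.376, 0.405 and 0.0703.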

Additional observations from a re-analysis of the deposited data

How the results depend on the processing

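The higher calls of GUL-1-GFP over wild-type pull-down stayed within 1.5 times of 28 and 45 members under DESeq2, total counts, no filter, protein-coding genes only, the replicate block and a log2FC over 2. The median log2FC of 0.38 in the standard medium became 0.12 with DESeq2, 1.29 with total counts, 0.58 with a count rule of 100 and 0.69 for complete motifs alone. The median of 0.89 with Nikkomycin Z became 1.74 with total counts, 0.57 with protein-coding genes only, 0.62 and 1.11 with count rules of 10 and 100, and 0.44 for complete motifs. The difference from the other mRNAs was 0.66 for complete motifs under standard growth conditions, and with Nikkomycin Z it was 0.33 with a count rule of 100 and 0.0784 for complete motifs. The causes were not tested. Protein-coding genes only moved the split of all calls with Nikkomycin Z from 506 higher and 378 lower to 371 and 472, and total counts to 422 and 62.

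Members called lower with Nikkomycin Z went from 2 to 0 with total counts. Members higher in the wild-type pull-down over input in the standard medium went from 0 to 5 with DESeq2, 13 with total counts and 3 with no filter. For Nikkomycin Z in the wild-type input, 4 higher became 10 with DESeq2 and 1 with total counts, and 1 lower became 3 with DESeq2 and 3 with no filter. In the wild-type pull-down 0 became 4 higher and 2 lower with DESeq2 and 1 and 4 with no filter, and the interaction gave 3 higher with no filter.

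With the replicate block, 30 and 51 members were called higher in GUL-1-GFP over wild-type, 7 higher and 3 lower for Nikkomycin Z in the wild-type input, 1 higher in the wild-type pull-down and 1 in the interaction, against 28, 45, 4, 1, 0 and 0 without it. In the wild-type pull-down over input with Nikkomycin Z, where the numbers pair the libraries, both fits called 0. Elsewhere not every same-numbered pair deviated together, and the labels give only a shared number.

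With each of the 22 libraries left out, members higher ranged from 13 to 30 under standard growth conditions and 28 to 58 with Nikkomycin Z, and lower from 0 to 0 and 0 to 3. The medians ranged from 0.23 to 0.46 and 0.78 to 0.98, their differences from the other mRNAs from 0.27 to 0.38 and 0.43 to 0.55, and the differences within abundance bins from 0.33 to 0.48 and 0.25 to 0.39. The wild-type pull-down over input ranged from 0 to 15 higher under standard growth conditions and stayed at 0 with Nikkomycin Z. Nikkomycin Z in the wild-type input ranged from 0 to 36 higher and 0 to 5 lower, in the wild-type pull-down from 0 to 1 in each direction, and the interaction from 0 to 1 higher. Where a GUL-1-GFP input was left out, the remaining one was assumed to vary like the other groups. Of 690 values of single named members under the other settings, 570 moved by less than 1 SD and 0 called ones changed sign. Depth limits the inputs most, where 1 to 208 of the 221 members had a count.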

Other observations

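Of the 140 motif genes under the count rule, 5 had a complete motif and 92 were hypothetical proteins, beside 8 and 87 of the 221 members. By edgeR 0 of the 93 tested were called higher in GUL-1-GFP over wild-type in the standard medium (3 at an unadjusted p under 0.05) and 2 with Nikkomycin Z, where 9 were called lower. These genes are low in the GUL-1-GFP pull-downs by choice, so the counts are a description.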
